A study of Mus musculus with 3 samples.

Results

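ATP-binding cassette (ABC) genes were described in cultured B16 mouse melanoma cells as those rows of an expression table whose symbol consists of Abc, a subfamily letter from a to g, a number and at most 1 further letter. This gave 38 members among 14293 genes, 12 in subfamily A, 8 in B, 6 in C, 4 in D, 1 in E, 3 in F and 4 in G. Tap1, Tap2 and Cftr encode ABC proteins under other symbols and are given apart. A further 12 RefSeq symbols that fit the pattern, among them Abcb5, Abcb11 and Abcc3, were not analysed here.

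RNA came from the sublines F0, F1 and F10 of B16, a melanoma of C57BL/6J mice. F0 is the parental line, and F10 is known as a strongly lung-colonizing derivative from serial selection in mice. No treatment is named, and all 3 shared the same culture, in high-glucose medium with 8% serum, within 10 passages of thawing, harvested before confluence. With 1 polyA library from each, differences were neither tested nor checked by replicates, and subline, culture and library cannot be told apart.

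ABC proteins bind and hydrolyse ATP in paired nucleotide-binding domains, and most use that energy to move a substrate across a membrane. Members of A mainly handle lipids. Those of B include drug pumps and mitochondrial transporters, and those of C export organic anions and conjugates or act as channels and channel regulators. D members carry fatty acyl groups into peroxisomes or vitamin B12 out of lysosomes, and the G members measured here export sterols or drugs. E and F members have no membrane domains and work with the ribosome. In melanoma, efflux pumps of this family are studied for drug resistance, and Abcb6 has also been placed in melanosomes.

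Levels are in RPKM, reads per kilobase of a gene's transcript relative to the reads of the library, and triplets of values are given in the order F0, F1, F10. An estimated 5.38, 6.26 and 5.33 fragments stood behind 1 RPKM of a 1 kb transcript. All 10 melanocyte markers read at least 20.1 RPKM in each library. Their sum was 10291, 9054 and 8501 RPKM, lowest in F10, although Tyrp1, Mitf and Sox10 read higher in F10 than in F0. Summed leukocyte markers (4 of 12 with a row) read 3.33, 3.45 and 3.05 RPKM in F0, F1 and F10. Of these, Cd68 read 2.09, 2.06 and 1.21 and Lyz2 read 1.23, 1.37 and 1.78. Ptprc, their defining gene, was listed at 0 in F0 and F10, and Emr1 read at most 0.0581. Summed fibroblast and pericyte markers (8 of 9 with a row) read 5.38, 4.69 and 12.9, and summed skeletal muscle markers (7 of 8) 10.8, 11.6 and 45.8, both highest in F10. Every skeletal muscle marker with a row was highest in F10, with Tnnt3 at 3.64, 2.7 and 13.2 RPKM. The fibroblast marker Dcn read 0.396, 0.445 and 2.62 RPKM. Epithelial markers (2 of 6) summed to at most 0.555 and endothelial ones (4 of 5) to at most 0.347. None of the 7 hepatocyte markers had a row used here.

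Of the 38 members, 25 reached 1 RPKM in at least 1 library and were compared. Differences are given as log2(RPKM + 1), a scale that understates the difference of low genes, and a size of 1 is called 2-fold. Between F10 and F0, 3 of the 25 members lay at least 2-fold apart, Abcc2, Abcg2 and Abca12, and all 3 were lower in F10. With a smaller pseudocount or on the TPM scale Abcc10 also passed 2-fold, higher in F10. In bulk RNA fewer cells of a kind and less RNA per cell cannot be told apart. The muscle and fibroblast markers were highest in the library where these 3 genes were lowest, and their part in the differences was not tested. Over all 10701 genes compared, 3.15% lay that far apart, 1.54% higher and 1.61% lower in F10. Between F1 and F0 the count was 1 of 25, Abcc2, lower in F1, against 1.99% of all genes (0.972% higher and 1.02% lower). Between F10 and F1 it was 2 of 25, Abcc2 and Abcg2, both lower in F10, against 3.98% (2.07% higher and 1.92% lower). At 1.5-fold, 5 of 25 members were apart in each pair, against 12.3% of all genes between F10 and F0, 10.2% between F1 and F0 and 15.5% between F10 and F1. The 3 comparisons share libraries. The median difference of the 25 members was -0.065 for F10 minus F0, 0.075 for F1 minus F0 and -0.0024 for F10 minus F1, where all genes compared had medians of -0.0095, -0.0068 and -0.011. Relative to F0, 11 members read higher in F10 and 14 lower, where 5241 of all genes compared read higher and 5456 lower.

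**Figure D1:**
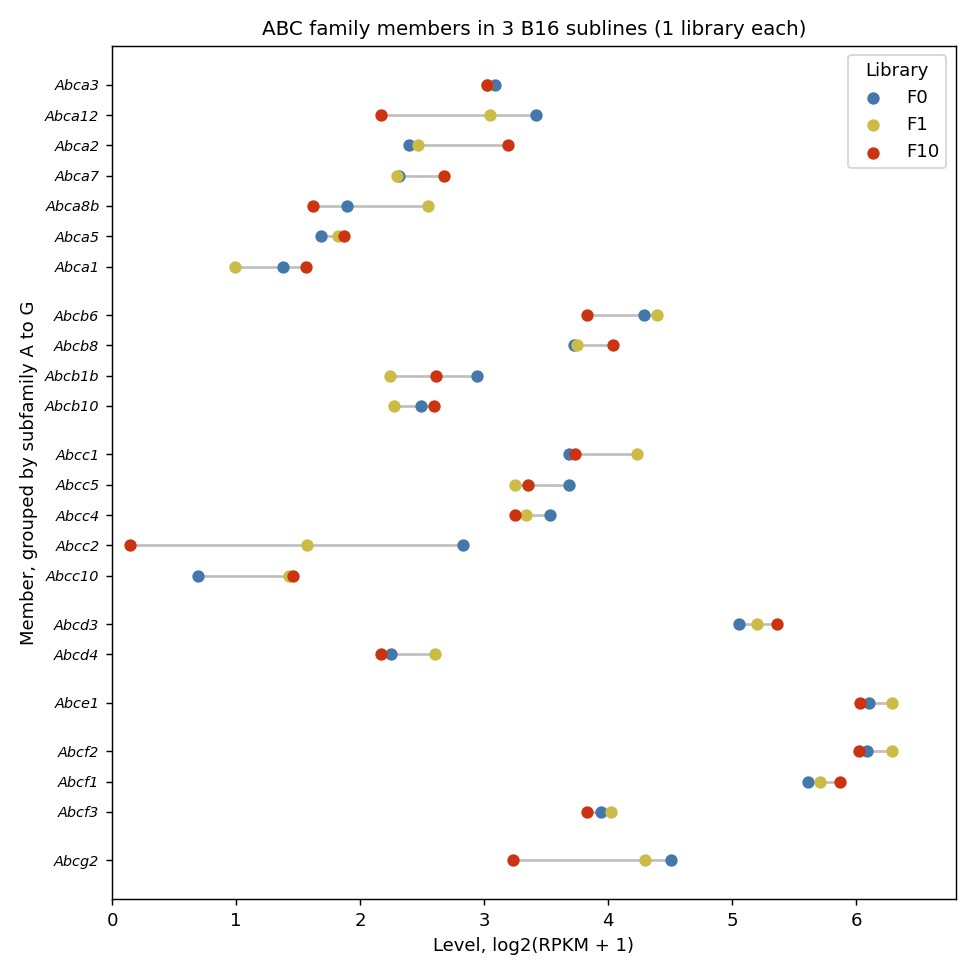
Level of 23 of the 25 compared members as log2(RPKM + 1) (x axis), with 1 point per library and members ordered by subfamily and mean level (y axis). Abcc2 spans the widest range, from 6.09 RPKM in F0 to 0.105 in F10, while Abce1, Abcf1 and Abcf2 lie furthest to the right.

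Subfamily C was led in its differences by Abcc2, also called MRP2, the pump that exports glutathione, glucuronide and bilirubin conjugates into bile. Abcc2 (chromosome 19, 43782192 to 43840740, plus strand, GRCm38) read 6.09, 1.96 and 0.105 RPKM in F0, F1 and F10, on an estimated 263, 99 and 4 fragments. F0 was highest and F10 lowest, with a wide gap at each step. The RPKM ratio of F0 to F10 was 58, with a 95% counting interval of 25.1 to 240.5. Such intervals are exact Clopper-Pearson intervals on the estimated fragments, rounded to whole ones, and cover counting error only. The Abcc2 estimate in F10 was 4.48 before rounding, while the ratio uses the RPKM values themselves. The ratio of F0 to F1 was 3.1 (2.44 to 3.93) and that of F1 to F10 was 18.7 (7.97 to 78.8). On the log2(RPKM + 1) scale F10 minus F0 was -2.68, which ranked 9 of 10701 genes, counted from the lowest. Abcc2 passed the filter only through F0 and F1, so its direction in F10 was set by the filter. The rank carries that limit. By level, Abcc2 placed at percentiles 51.2, 33.8 and 13.8 of all genes. In the authors' deposited table its score for F10 against F0 was -2.40, beside -2.43 for Abcg2, a score that grows with level and holds no replicate spread.

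Abcg2, the breast cancer resistance protein, exports drugs, urate and porphyrins and marks side-population cells. It read 21.7, 18.6 and 8.4 RPKM, on 667, 664 and 255 estimated fragments. F0 and F1 lay near each other and F10 well below. The ratio of F0 to F10 was 2.59 (2.24 to 3), that of F1 to F10 was 2.22 (1.92 to 2.57), and that of F0 to F1 was 1.17 (1.05 to 1.3). Abca12, a lipid transporter of the epidermal barrier, read 9.68, 7.26 and 3.49 RPKM in F0, F1 and F10, again with F10 lowest. Its ratio of F0 to F10 was 2.78 (2.33 to 3.34) and that of F0 to F1 was 1.33 (1.17 to 1.52). On the log2(RPKM + 1) scale F10 minus F0 was -1.27 for Abcg2 and -1.25 for Abca12. The GC content of the transcripts is 42.9% for Abcc2, 44.5% for Abcg2 and 45.5% for Abca12. After subtraction of the median of genes of like GC content, the F10 against F0 differences were -2.61, -1.20 and -1.17.

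The sequence before the most upstream RefSeq start of these 3 genes is shown because they were the members at least 2-fold apart, beside that of Abca2, the member with the largest positive F10 minus F0 difference on the log2(RPKM + 1) scale (Abcc10 had the larger RPKM ratio). These 4 were chosen after their values were seen. The sequences are from RefSeq on GRCm38.p6, in the direction of the gene and cut where an annotated transcript begins, and capitals mark CG dinucleotides. They cover chr19:43782058-43782191 for Abcc2, chr6:58584283-58584522 for Abcg2, chr1:71414911-71415160 on the minus strand for Abca12 and chr2:25428349-25428598 for Abca2.
Abcc2: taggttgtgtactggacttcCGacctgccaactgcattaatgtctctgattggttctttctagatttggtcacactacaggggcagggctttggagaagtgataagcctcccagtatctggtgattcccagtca
Abcg2: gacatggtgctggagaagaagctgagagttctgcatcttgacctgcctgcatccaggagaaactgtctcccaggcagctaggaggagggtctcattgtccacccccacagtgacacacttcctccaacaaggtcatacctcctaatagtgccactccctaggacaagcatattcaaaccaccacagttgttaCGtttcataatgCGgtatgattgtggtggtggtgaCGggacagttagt
Abca12: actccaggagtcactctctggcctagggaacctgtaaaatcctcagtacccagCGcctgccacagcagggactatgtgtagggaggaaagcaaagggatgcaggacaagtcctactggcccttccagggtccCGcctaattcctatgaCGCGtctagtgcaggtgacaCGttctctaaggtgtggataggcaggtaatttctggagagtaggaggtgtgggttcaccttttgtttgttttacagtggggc
Abca2: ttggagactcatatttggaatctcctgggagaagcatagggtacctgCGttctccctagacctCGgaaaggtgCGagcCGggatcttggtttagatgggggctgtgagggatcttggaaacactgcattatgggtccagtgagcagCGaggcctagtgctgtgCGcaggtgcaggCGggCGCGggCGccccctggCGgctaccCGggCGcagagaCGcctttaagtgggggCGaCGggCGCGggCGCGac
In the full 250 bases before the RefSeq start, Abcc2 held 1 CG, and 1.31% of the 8258 compared genes with a RefSeq window held no more. For Abcc2 only the 134 printed bases lie before the gene start given above, and the rest of its window lies past that start. Abca12 held 5 CG, and Abca2 held 20. Abcg2 has 3 annotated starts, whose windows held 3, 10 and 23 CG from the most upstream on, and only the first is printed. Windows were at hand for 20 of the 25 compared members, with a median of 18 CG (genes with several starts averaged), against 17 over all compared genes. For 9 of the 13 members under 1 RPKM the median was 11.5, against 8 over all genes under 1 RPKM. No methylation was measured, and nothing on promoter use follows from these counts.

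**Figure D2:**
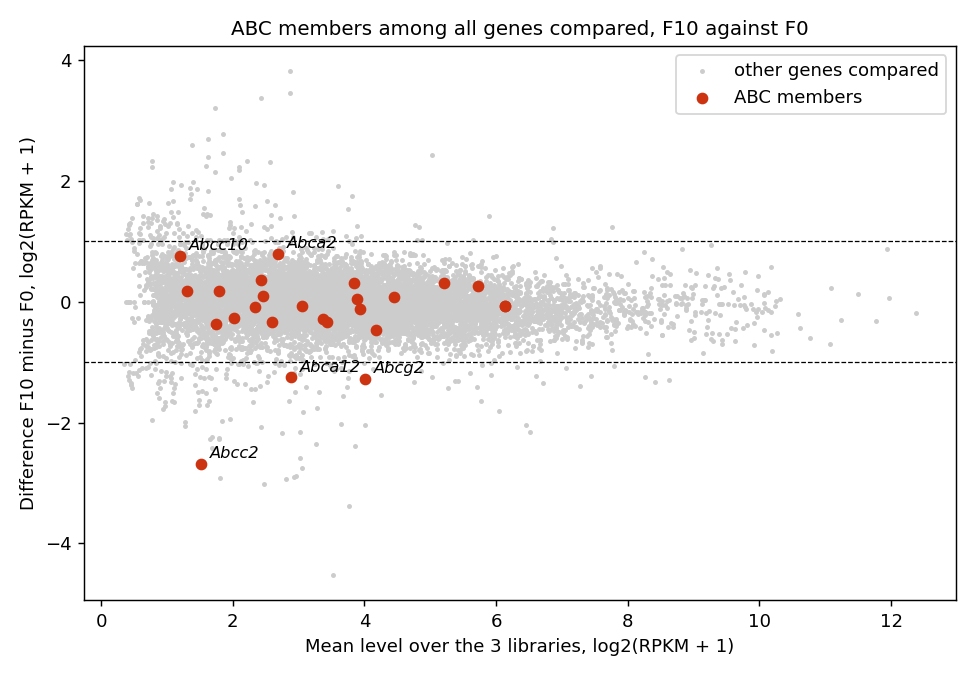
Difference of F10 minus F0 in log2(RPKM + 1) (y axis) against the mean level over the 3 libraries (x axis) for all 10701 genes compared, with the 25 ABC members in red and dashed lines at 2-fold. Abcc2, Abcg2 and Abca12 lie below the lower line and no member lies above the upper line.

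The remaining C members showed smaller differences. Abcc1, also called MRP1, which exports glutathione conjugates and leukotriene C4 from most cell types, read 11.8, 17.8 and 12.3 RPKM. F1 stood above the others, at 1.51 times F0 (1.33 to 1.7) and 1.45 times F10 (1.29 to 1.64). Abcc4, an exporter of cyclic nucleotides and prostanoids, read 10.5, 9.1 and 8.48. Abcc5, which also carries cyclic nucleotides, read 11.9, 8.52 and 9.21, with F0 highest, at 1.39 times F1 (1.2 to 1.63) and 1.29 times F10 (1.1 to 1.51). Abcc10 (MRP7) read 0.614, 1.68 and 1.75 RPKM on 17, 55 and 49 fragments. It entered the comparison only through F1 and F10, so its direction was set by the filter. Its ratio of F10 to F0 was 2.84 (1.65 to 5.4), while its log2(RPKM + 1) difference of 0.77 stayed under 2-fold. Abcc2 was thus the member of lowest level in F10 among those compared in the subfamily, where in F0 only Abcc10 read lower. The summed level of subfamily C was 41, 39.1 and 31.9 RPKM.

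**Figure D3:**
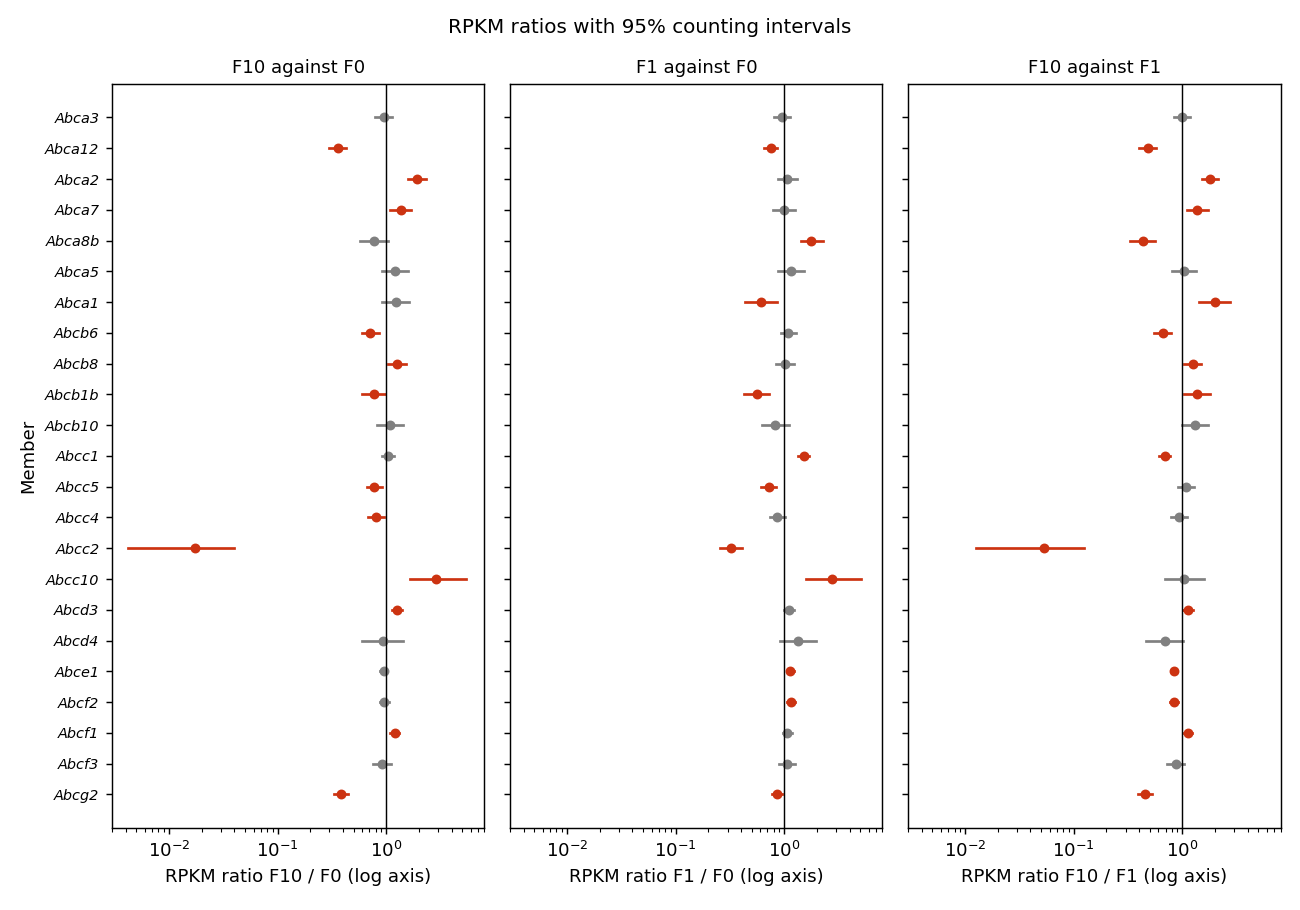
RPKM ratios of 23 of the 25 compared members (points, log axis) with 95% counting intervals (lines) for the 3 pairs of libraries, in red where the interval excludes 1. The Abcc2 ratios of F10 lie far to the left, at 0.0172 of F0, and most other members lie within a factor of 2 of 1.

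Counting error alone left many modest differences distinguishable. The counting interval of the ratio excluded 1 for 13 of 25 members between F10 and F0, where it did so for 41.9% of the 10603 genes with fragments in both libraries. Of the members 6 were higher and 7 lower in F10, against 20% and 21.9%. The interval excluded 1 for 13 of 25 between F1 and F0, against 40.8%, of which 6 were higher (19.7% of all genes) and 7 lower (21.1%) in F1. Between F10 and F1 it did so for 15 of 25, against 46.2%, of which 7 were higher (22.5%) and 8 lower (23.7%) in F10. These shares lie a little above those of all genes and say nothing of replicate spread. Intervals narrow as fragments increase, and fragments increase with transcript length and level. The median compared gene had an estimated 179, 208 and 176 fragments in F0, F1 and F10. The members were not matched to all genes in this, so the excess is not read as a trait of the members.

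Among the lipid transporters of subfamily A, 7 of 12 members were compared. Abca2, a late endosomal and lysosomal transporter linked to sterol and myelin lipid handling, read 4.26, 4.54 and 8.14 RPKM. F10 stood apart, at 1.91 times F0 (1.59 to 2.3) and 1.79 times F1 (1.51 to 2.13), with a log2(RPKM + 1) difference from F0 of 0.80. Its transcript is rich in GC, at 57.5%, and the difference after subtraction of like genes was 0.68. Abca7, involved in phospholipid transport and phagocytosis, read 3.96, 3.91 and 5.37, a ratio of F10 to F0 of 1.36 (1.09 to 1.71) and a transcript GC of 58.9%. Abca7 lay 0.36 above F0 in log2(RPKM + 1) and 0.14 after the GC subtraction.

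Abca1, the exporter of cholesterol and phospholipid to apolipoprotein A-I, read 1.6, 0.985 and 1.95 RPKM. It was lowest in F1, where it fell just under the filter, and the ratio of F10 to F1 was 1.98 (1.43 to 2.75). Abca8b read 2.72, 4.83 and 2.07, highest in F1 at 1.78 times F0 (1.41 to 2.27) and 2.33 times F10 (1.8 to 3.03). Abca3, the surfactant lipid transporter of lung, read 7.5, 7.14 and 7.13 with a ratio of F0 to F10 of 1.05 (0.882 to 1.26), the least spread among the A members compared. Abca5, an endolysosomal member, read 2.21, 2.54 and 2.64. Exons of Abca3 overlap an opposite-strand gene over 914 bases and those of Abca8b over 241, and whether the counting used strand is not given, so both levels carry that uncertainty. The A members together summed to 32.8, 31.7 and 31.4 RPKM, close to equal in the 3 libraries.

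Of subfamily B, 5 of 8 members were compared. Abcb8, a subunit of a mitochondrial potassium channel complex, read 12.2, 12.4 and 15.4 RPKM, and Abcb10, which takes part in haem synthesis, read 4.63, 3.84 and 5.03. The ratio of F10 to F0 was 1.26 (1.04 to 1.53) for Abcb8 and 1.09 (0.828 to 1.43) for Abcb10. Abcb6, tied to porphyrin transport and found in mitochondria, lysosomes and melanosomes, read 18.5, 20.1 and 13.2, lowest in F10. Its ratio of F0 to F10 was 1.4 (1.17 to 1.69), and F1 stood at 1.52 times F10 (1.28 to 1.82). Of the 50-base words of its transcript, 90.3% also occur in Gm29253, an overlapping transcript of the same strand, so its level is uncertain.

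Abcb1b, a rodent P-glycoprotein that pumps many drugs, read 6.7, 3.72 and 5.11 RPKM. F1 was lowest, with a ratio of F0 to F1 of 1.8 (1.39 to 2.34). Its close relative Abcb1a was listed at 0 in F0 and at 0.0698 and 0.0811 in F1 and F10. The pair shares 18% of the 50-base words of Abcb1b, so reads may be split between them. Of the 2, Abcb1b had the far higher level in each library. Abcb10 shares 444 exon bases with an opposite-strand gene and Abcb1b shares 143, with the same uncertainty over strand.

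Abcd3, which carries branched acyl groups into peroxisomes, led subfamily D at 32.1, 35.7 and 40.2 RPKM. Its levels stepped upward, with a ratio of F10 to F0 of 1.25 (1.12 to 1.4). Abcd4, which serves vitamin B12 release from lysosomes, read 3.76, 5.08 and 3.51, and its intervals included 1 for each pair.

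The soluble members held about as much RNA per length as all of the transporters together. Abce1, which splits ribosomes after termination, read 67.9, 77 and 64.4 RPKM. Abcf2 read 67, 77 and 64.1, almost the same values. Abcf1, a factor that binds eIF2 and ribosomes, read 47.9, 51.2 and 57.3, and Abcf3 read 14.4, 15.3 and 13.2. Abce1 and Abcf2 were highest in F1, by 1.13 (1.06 to 1.22) and 1.15 (1.06 to 1.25) relative to F0, whereas Abcf1 was highest in F10, at 1.2 times F0 (1.09 to 1.31). The 4 genes made up 50.1% of the summed RPKM of the family in F0, 53.1% in F1 and 52.8% in F10. The other 34 members summed to 196.6, 194.8 and 178 RPKM. Abcg2 was the sole G member at 1 RPKM or more, and subfamily G summed to 21.8, 18.9 and 8.67.

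**Figure D4:**
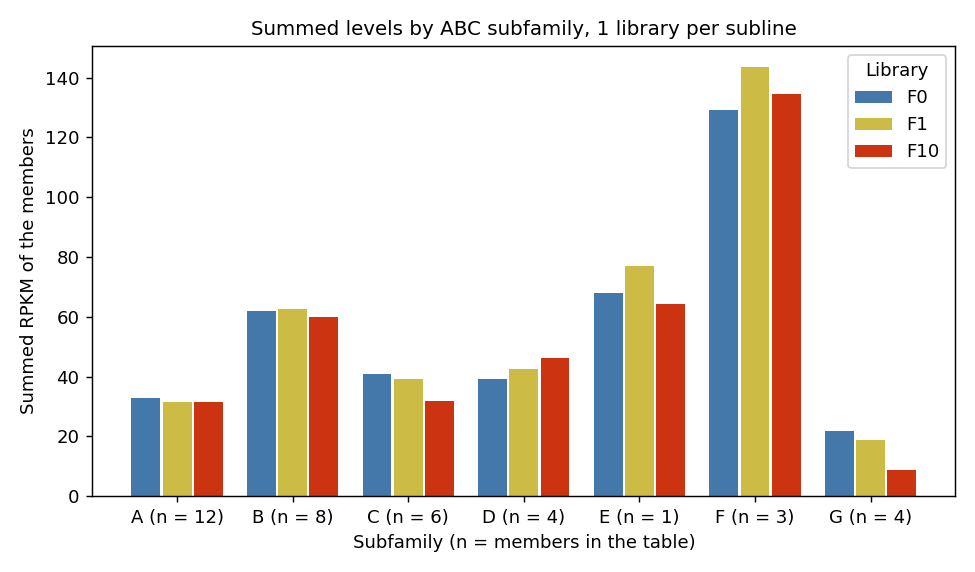
Summed RPKM of all members of each subfamily (bars from 0) in the 3 libraries, with the number of members on the x axis. Subfamily F is highest at 129.3 to 143.5 RPKM, and subfamily G reads 21.8 in F0 and 8.67 in F10.

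The other 13 members read under 1 RPKM in every library. They were Abca4, Abca6, Abca8a, Abca9, Abca13, Abcb1a, Abcb4, Abcb9, Abcc9, Abcd2, Abcg1, Abcg4 and Abcg8, with at most 0.403 RPKM (Abca8a in F10) and at most 12 estimated fragments. Of them 8 were listed at 0 in at least 1 library. The nearest members on either side of the filter were Abca8a, at 0.403 RPKM at most, and Abcc10, at 1.75. Abcg1, the exporter of cholesterol to larger lipoproteins, was listed at 0 in F0 and F10 and read 0.0276 in F1. Abcc9, the sulphonylurea receptor of muscle channels, read at most 0.0507, and its channel partner Kcnj11 at most 0.0601.

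Genes next to Abcc2 on its chromosome did not share its difference. The 5 nearest genes of the table on each side read between -0.47 and 0.39 in their F10 minus F0 difference, with a median of 0.054, where Abcc2 lay at -2.68. Its direct neighbours are the copper homeostasis gene Cutc, at 5.99, 7.4 and 6.22 RPKM in F0, F1 and F10, and the guanine nucleotide exchange factor Dnmbp, at 2.11, 1.6 and 2.19. For F1 minus F0 the 10 neighbours lay between -0.28 and 0.65, where Abcc2 lay at -1.26.

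**Figure D5:**
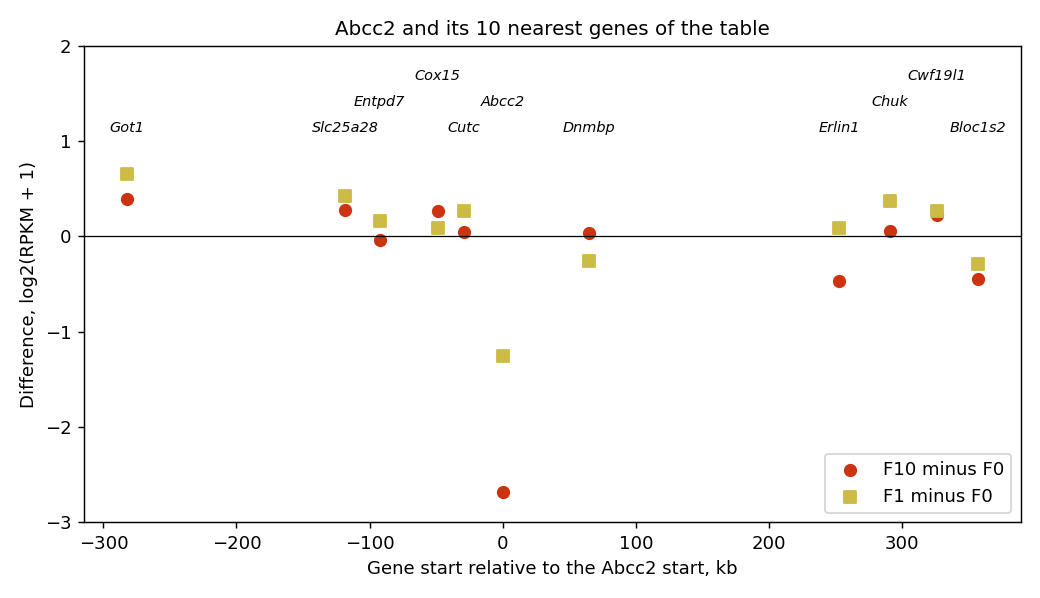
Difference from F0 in log2(RPKM + 1) (y axis) of Abcc2 and its 10 nearest genes of the table, by distance of the gene start from that of Abcc2 in kb (x axis), for F10 (red circles) and F1 (yellow squares). The neighbours lie between -0.47 and 0.65, and Abcc2 lies at -2.68 and -1.26.

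Of the ABC proteins with other symbols, Tap1 and Tap2 form the peptide transporter that loads MHC class I. Tap1 read 3.67, 1.34 and 1.21 RPKM, highest in F0, and Tap2 read 1.72, 0.58 and 0.454. Tap1 was at least 2-fold lower in F10 than in F0, at -1.08 in log2(RPKM + 1), as 1.61% of all genes were. Its ratio to F0 was 0.331 (0.186 to 0.564) in F10 and 0.364 (0.222 to 0.602) in F1. Tap2 passed the filter only through F0, which set its direction. Cftr, the chloride channel of the family, read 1.01, 1.58 and 0.807. The ratio of F10 to F1 was 0.909 (0.465 to 1.69) for Tap1, on 19 and 25 fragments, and 0.784 (0.278 to 2.08) for Tap2, on 8 and 12.

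Genes that supply or steer these transporters did not share one direction. Of 31 listed genes of conjugation and organic anion uptake with a row, 19 were compared. Against F0, 1 was at least 2-fold higher in F10 (1.54% of all genes) and 2 were lower (1.61%), and the median was -0.082. The higher one was Gsta4, a glutathione transferase for lipid aldehydes, at 10.5, 2.51 and 42.3 RPKM in F0, F1 and F10. Its values rested on 55, 15 and 218 fragments. The lower ones were Gstp2 (254, 190 and 108 RPKM), a near copy of Gstp1 whose reads may be shared, and Gstt1 (3.24, 0.618 and 0.363). Gstt1, on 18, 4 and 2 fragments, passed the filter only through F0, which set its direction. In F1, 3 were at least 2-fold lower than in F0 (1.02% of all genes), Gsta4, Gstt1 and Gstk1. Gstk1, a mitochondrial and peroxisomal transferase, read 9.02, 1.55 and 14.4 RPKM on 45, 9 and 70 fragments. Between F10 and F1, 3 were at least 2-fold higher in F10 (2.07% of all genes), Gsta4, Gstk1 and Ggt1. Ggt1, which starts the breakdown of exported glutathione, read 4.43, 1.74 and 4.66 on 51, 24 and 54 fragments. Gstp1 read 921, 813 and 885 RPKM and Gstm1 read 77.7, 87.1 and 68.8. Gclm, a subunit of the enzyme that starts glutathione synthesis, read 50.7, 86.6 and 44.7.

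Of 14 transcription regulators of drug and bile salt transporters with a row, 10 were compared and none lay 2-fold apart from F0 in F1 or F10, where 1.99% and 3.15% of all genes did. Nr1h4, the bile acid receptor FXR, a known inducer of Abcc2 in liver, read 8.4, 6.43 and 4.59 RPKM and is named here after its values were seen, as are Nr1i2, Nr1i3, Nr1h2, Nr1h3 and Kcnj11. Its ratio of F10 to F0 was 0.547 (0.377 to 0.779), while the intervals of F1 to F0 (0.561 to 1.04) and of F10 to F1 (0.488 to 1.03) included 1. Nfe2l2, the oxidant-response factor NRF2, read 48.1, 62.7 and 43.3, highest in F1. The xenobiotic receptors Nr1i2 and Nr1i3 read at most 0.133 and 0.147 RPKM. Rara, a retinoic acid receptor, read 2.49, 1.32 and 4.19, higher in F10 than in F1. It was the 1 gene of the list at least 2-fold apart in that pair, where 3.98% of all genes were. Rxra read 17.5, 17 and 19.8 and Rxrb 12.9, 13.7 and 16. Of 7 compared genes for membrane anchoring of Abcc2, none was 2-fold apart in any pair. Radixin, encoded by Rdx, which holds Abcc2 at the bile canaliculus in mice, read 47.7, 54.8 and 47.6, and the related Msn read 176, 170 and 137.

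The lists around the lipid, mitochondrial, peroxisomal and ribosomal members are read beside all genes compared, of which 3.15%, 1.99% and 3.98% were 2-fold apart between F10 and F0, F1 and F0, and F10 and F1. At these shares a list of this size would hold few or no such genes. None of 16 compared sterol efflux, LXR and SREBP genes lay 2-fold apart in any pair, with medians of -0.15 for F10 and -0.24 for F1 relative to F0. Nr1h2, the LXR beta receptor that induces Abca1, read 10, 13.6 and 16.6 RPKM, while Nr1h3 was listed at 0 in F0 and F10. Apoe, a lipid acceptor, read 323, 309 and 287. None of 19 genes of mitochondrial haem and iron-sulphur synthesis was 2-fold apart, with medians of 0.0093 and -0.0089 against F0. Fech, the enzyme that inserts iron into haem, read 29.7, 30.8 and 21. Of 17 peroxisomal genes, 1 was 2-fold apart, Phyh, an enzyme of phytanic acid breakdown, at 10.6, 16.6 and 7.16 and lower in F10 than in F1. None of 13 genes of ribosome recycling and the Gcn2 branch was 2-fold apart, with medians of -0.029 for F10 and 0.087 for F1 against F0. Etf1, the release factor that acts with Abce1 at stop codons, read 66.7, 87.2 and 65.5, highest in F1 as Abce1 was.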

How the data were processed

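Stranded polyA libraries of the 3 sublines were made with a TruSeq kit, per the labels' protocols. TopHat, Bowtie2, Cufflinks, bcl2fastq and mm10 are named in the submitters' processing notes. Versions, settings, annotation and use of strand: not given in the sources used here. In the deposited table the authors give an RPKM per gene and library. The authors' score for F1 and for F10 relative to F0 is, by computation, the difference in RPKM over the square root of their sum. The table used holds no counts, so depth is known only by estimate.

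From these, 20 of 14313 rows with a date in place of a symbol were left out, and genes with at least 1 RPKM in at least 1 library were compared as log2(RPKM + 1). The worth of 1 fragment came from low values of 1344 single-transcript genes (72.8% to 73.2% of low values within 0.05 of a whole fragment), with an offset of 10 bases. Lengths are those of the longest GENCODE M21 (GRCm38) transcript with a RefSeq match. They were taken after seeing that they gave nearly whole fragments for some low members, such as Abca8a (12.02, 7.01 and 12.02). For others they did not, as for Abcb9 (2.2, 3.3 and 5.5) and for Abcc2 in F10 (4.48). The planned median length includes fragmentary transcripts. The steps were tested on simulated data with Python 3.11.15, numpy 2.4.6, pandas 2.3.3 and scipy 1.17.1.

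The members, the 9 gene lists and the rule for named genes were chosen with earlier results of these data known. Members at 1 RPKM or more are named, with ratios for those with larger differences, and 2 of them are counted but not reported by name here. From each list the text names genes 2-fold apart and some of the 4 most abundant others, and it marks those named outside this rule. Alternatives were pseudocounts of 0.1 and 0.5, no filter or a filter at 5 RPKM, rescaling to equal sums (TPM scale) or by median ratios, subtraction of the median of 20 GC bins, a 1.5-fold threshold and other transcript lengths.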

Additional observations from a re-analysis of the deposited data

How the results depend on the processing

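Abcc2, Abcg2 and Abca12 lay at least 2-fold lower in F10 than in F0 under each alternative run. Abcc2 also lay at least 2-fold lower in F1 than in F0 and in F10 than in F1 under each. The filter and threshold runs leave every difference unchanged and so add no support. A smaller pseudocount can only enlarge a difference, so those runs could not have removed a call. The TPM scale also gives the pseudocount less weight. Rescaling by median ratios and GC subtraction were the runs that could more readily have removed a call. With the filter at 5 RPKM Abcc2 was kept only through F0, which set its direction there. The Abcc2 difference of F10 against F0 ranged from -4.92, with a pseudocount of 0.1, to -2.61, after GC subtraction. Abcc10 joined these 3 genes, higher in F10 than in F0, with pseudocounts of 0.1 and 0.5 and on the TPM scale. That gave 4 members apart, where 5.96%, 4.25% and 4.94% of all genes compared were apart. With a pseudocount of 0.1, 2 members were apart for F1 against F0 (Abcc10 joining, higher in F1), against 5.07% of all genes, and 4 for F10 against F1 (Abca12 and Abca8b joining), against 7.73%. On the TPM scale 2 were apart for F1 against F0 (Abcc10 joining), against 3.89%, and 3 for F10 against F1 (Abca8b joining), against 6.42%. With a pseudocount of 0.5, 3 were apart for F10 against F1 (Abca8b joining), against 5.71%. After GC subtraction 1 was apart for F10 against F1, Abcc2, since Abcg2 lay at -0.93, against 3.44% of all genes. At 1.5-fold, 5 members were apart in each pair. The Abcc2 difference was -3.75 on the TPM scale and -3.45 with a pseudocount of 0.5. The median difference of the members ranged from -0.073 to 0.025 between F10 and F0, 0.026 to 0.12 between F1 and F0 and -0.097 to 0.033 between F10 and F1, so its sign was not stable for the pairs with F10. With the median transcript length the Abcc2 ratio rested on 163 and 3 fragments, with an interval of 18.1 to 263.3. No paired analysis was possible because each subline has 1 library. At this depth the members under 1 RPKM, with at most 12 fragments, allow no statement on differences.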
